A study of Mus musculus with 10 samples.

Results

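Acyl-CoA thioesterases cleave the thioester bond of an acyl-CoA and release a free fatty acid and coenzyme A. The 8 genes described here are Acot1, Acot2, Acot3, Acot4, Acot7, Acot8, Acot9 and Acot12, chosen by their gene symbols and the older symbols Cte1, Mte1, Pte2a and Pte2b. They were represented by 10 of the 41174 probes of an Agilent mouse expression array, and all 8 were among the 15809 genes bright enough to be tested. Total RNA from the livers of C57BL/6 mice aged 1 year was labelled with Cy3 and hybridised at 1 sample per array, with 5 arrays from wild-type mice (WT1 to WT5) and 5 from knockout mice (KO1 to KO5) that lack TAK1, the nuclear receptor also called TR4 and encoded by Nr2c2. The labels give no sex, diet or fasting state, and the sources used here do not say which part of Nr2c2 was removed or in which cells. They also do not say that each array came from a separate mouse, so p-values reflect the spread among these 10 samples, which may be technical.

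Acyl-CoAs are the activated form in which fatty acids are oxidised, built into triglyceride or elongated. Synthetases make them and thioesterases hydrolyse them, so the balance of both enzyme groups sets the pool of acyl-CoA in each compartment of the hepatocyte. The family falls into a type I group, whose genes lie side by side on mouse chromosome 12 and arose by duplication, and an unrelated type II group with a hotdog fold, whose genes are scattered. Several type I genes are known in mouse liver as targets of PPARA, the nuclear receptor for fatty acids that is active in fasting. PPARA and TR4 both bind repeats of the hexamer AGGTCA.

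The members of the chromosome 12 group are close paralogs, so the letters their probes carry are shown first. The first 30 bases of each 60-base probe are given, as the deposited files list them, with the probe's position on the mouse build mm7 that the file headers name.

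Acot1, chr12:82013539-82013598: tatcaaaatagtgctgattcaagggctggg
Acot2, chr12:81989158-81989217: ggggaaacctcatatatattatcacaatgt
Acot3, chr12:82054675-82054734: tggatcttctaaacaatcctttggaaggac
Acot4, chr12:82039249-82039308: cttctgggtctttccctaggagctgatgtc
Acot4, chr12:82039908-82039967: tgctggatgacatgaaattcatgtttaggg

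Each of these probes has its own sequence. Among 14 full-length probes for the 8 members and for Acot5, Acot6 and Acot10, the closest of the 91 pairs matched at 26 of 60 bases in any ungapped alignment. Transcript sequences were not used here, so whether a probe also binds a paralog's transcript was not tested, and neither was the exon or UTR in which a probe lies.

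The deleted gene had a mixed signal. Both probes named Nr2c2 were above background on all arrays and read higher in the knockout, by 0.36 ± 0.13 at chr6:92187254-92187312 and by 0.44 ± 0.11 at chr6:92245007-92245066 (adjusted p = 0.144 and 0.043 in the limma fit over probes). A probe between them under another name, at chr6:92237812-92237871, passed background on 5 wild-type arrays and 0 knockout arrays, at least 5.25-fold lower in the knockout. Here the mean wild-type signal was set against, for each knockout array, the higher of its own signal and the dimmest signal above background. Another probe between those named Nr2c2, at chr6:92227438-92227497 and also under another name, was above background on 0 arrays of each group. Its dim signal was 1.01 higher in the knockout on the log2 scale. The 75th percentile signal was 950.3 to 1344.4 over the 10 arrays and 51.0% to 62.4% of probes were above background.

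The 8 genes were mostly lower in the knockout, but only Acot2 changed, that is, only Acot2 had an adjusted p under 0.05 in limma over all genes. Acot2, the mitochondrial member of the type I group, fell 2.28-fold. Its neighbours Acot1, Acot3 and Acot4 were below the wild-type mean on most knockout arrays without passing the test, and among the members elsewhere in the genome Acot7, Acot8 and Acot12 were slightly lower and Acot9 slightly higher. Of the 8 genes, 1 fell and 0 rose, a share to set beside the 3.48% of all tested genes that fell, the 2.44% that rose and the 5.91% that changed in either direction. At an unadjusted p under 0.05 in the same fit, 3 of the 8 members (37.5%) differed, against 23.7% of all genes. The log2 difference, knockout minus wild type, was below zero for 7 of the 8 members (87.5%) and for 48.1% of all genes, with medians of -0.44 and 0.01. The 935 changed genes divided into 385 higher and 550 lower, into 314 higher and 156 lower without scaling between arrays, and into 522 higher and 487 lower with the percentile taken over probes detected on every array. Without scaling the median of all genes was 0.12, and each of the 8 members kept its sign.

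**Figure D1:**
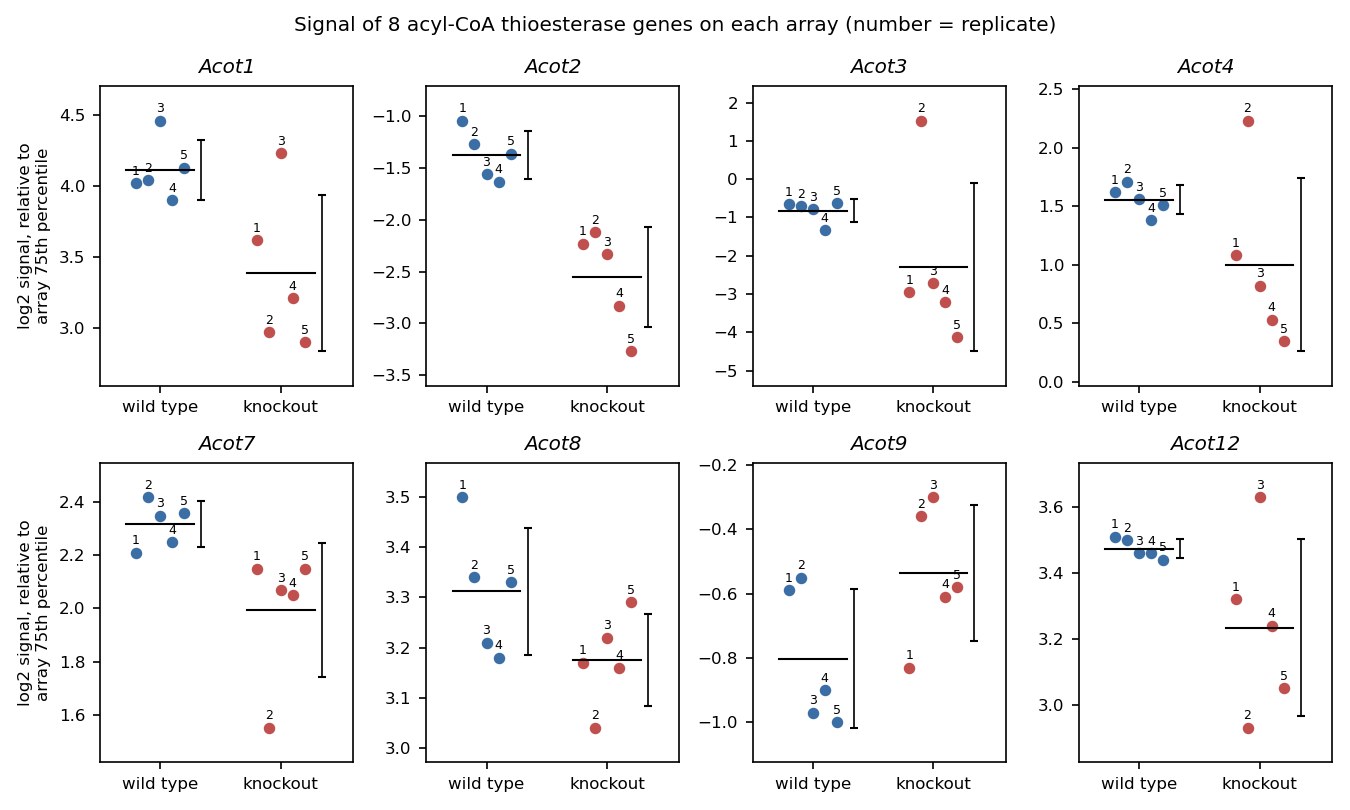
Log2 signal relative to each array's 75th percentile (y axis) of the 8 genes on 5 wild-type and 5 knockout arrays, with the replicate number above each point, a line at the group mean and a bar of 1 SD beside it; each panel has its own axis. The knockout points of Acot2 and Acot7 lie below all wild-type points, and KO2 stands at 1.53 for Acot3 while the other knockout arrays lie between -4.13 and -2.71.

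All values below are log2 signals relative to the 75th percentile of the same array, so they can be compared between arrays for a probe but not between probes. ACOT2 hydrolyses long-chain acyl-CoA in the mitochondrial matrix. The Acot2 probe read -1.04, -1.27, -1.56, -1.63 and -1.36 on WT1 to WT5. On KO1 to KO5 it read -2.23, -2.12, -2.33, -2.83 and -3.27. The groups did not overlap, and KO4 and KO5 were the lowest. The difference was -1.19 ± 0.22 (SE of the limma fit, n = 5 per group; adjusted p = 0.017; exact two-sided permutation p = 0.0079, the smallest that 5 against 5 arrays can give). Without WT2 the difference was -1.16 and the call was lost (adjusted p = 0.052).

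ACOT1 is the cytosolic counterpart of ACOT2 and acts on the same long-chain substrates. Acot1 read 4.02, 4.04, 4.46, 3.90 and 4.13 on WT1 to WT5. It read 3.62, 2.97, 4.23, 3.21 and 2.90 on KO1 to KO5. KO3 lay within the wild-type range and the other 4 knockout arrays were under every wild-type array. The difference of -0.72 ± 0.24 (1.65-fold) did not pass the test (adjusted p = 0.108, exact permutation p = 0.040). Without KO3 it was -0.93 ± 0.17 (1.91-fold, adjusted p = 0.021), and without KO5 it was -0.60 ± 0.24 (adjusted p = 0.193). KO3 was singled out by its value, so the p-value without it is only descriptive.

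ACOT3 and ACOT4 are peroxisomal. ACOT3 acts on long-chain acyl-CoA, and mouse ACOT4 on succinyl-CoA and other dicarboxylyl-CoA esters that arise when peroxisomes shorten dicarboxylic acids. Acot3 read -0.65, -0.70, -0.79, -1.34 and -0.63 on WT1 to WT5. On KO1 to KO5 it read -2.95, 1.53, -2.71, -3.21 and -4.13. KO2 was the highest of the 10 arrays and the other knockout arrays were the 4 lowest. The difference over all arrays, -1.47 ± 0.89, did not pass the test (2.77-fold, adjusted p = 0.346, exact permutation p = 0.214). Without KO2 it was -2.43 ± 0.28, a 5.38-fold lower signal (adjusted p = 0.0025), and without KO5 it was -1.01 ± 0.88 (adjusted p = 0.539). KO2 was singled out by its value, so the p-value without it is only descriptive.

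Acot4 had the same pattern in both of its probes. The probe at 82039908, which stands for the gene, read 1.62, 1.71, 1.56, 1.38 and 1.51 on WT1 to WT5. It read 1.08, 2.23, 0.82, 0.53 and 0.35 on KO1 to KO5. KO2 was again above every wild-type array and the other knockout arrays were below them all. The difference was -0.55 ± 0.30 (1.47-fold, adjusted p = 0.299, exact permutation p = 0.143). Without KO2 it was -0.86 ± 0.14 (1.82-fold, adjusted p = 0.012), and without KO5 it was -0.39 ± 0.30 (adjusted p = 0.481).

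The probe at 82039249 is independent of the first in its letters but shares the gene. It read -0.06, -0.07, -0.28, -0.38 and -0.21 on WT1 to WT5 and -0.94, 0.43, -0.84, -1.02 and -1.23 on KO1 to KO5. Here too KO2 alone was above the wild-type arrays and the other 4 were below them. In the limma fit over probes its difference was -0.52 ± 0.27 (adjusted p = 0.285), and -0.81 ± 0.10 without KO2 (adjusted p = 0.0036). Of the 9 tested probes of the members 1 changed, that of Acot2, against 5.05% of the 23266 probes tested.

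**Figure D2:**
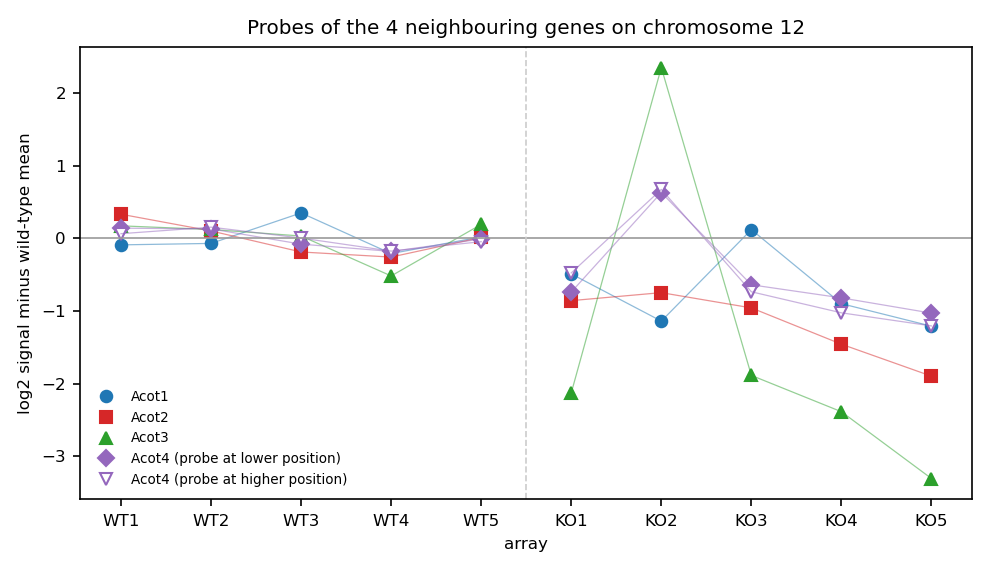
Log2 signal minus the probe's wild-type mean (y axis) on each of the 10 arrays (x axis) for the 5 probes of Acot1, Acot2, Acot3 and Acot4; lines only join the points of a probe, and "higher" and "lower" position refer to the places of the Acot4 probes on the chromosome. KO2 lies above zero for Acot3 and both Acot4 probes and below zero for Acot1 and Acot2.

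KO2 therefore divided the neighbouring genes. It was the highest knockout array for Acot2, Acot3 and Acot4 but the second lowest for Acot1, while KO5 was the lowest knockout array for all 4. KO2 also stood apart over all genes: its mean correlation with the other knockout arrays, across genes, was 0.971, against 0.978 to 0.983 for the other 4 knockout arrays and 0.989 to 0.993 for the wild-type arrays. Leaving it out gave 3 changed members in place of 1, all lower (Acot2, Acot3 and Acot4), leaving out KO3 gave 2 (Acot1 and Acot2) and leaving out WT2 gave 0. Arrays singled out by their values make these calls a description.

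Type II members showed smaller differences. ACOT7 is a cytosolic enzyme, abundant in brain, that prefers long-chain acyl-CoA including arachidonoyl-CoA. Its probe at chr4:151261235-151261294 read 2.21, 2.42, 2.35, 2.25 and 2.36 on WT1 to WT5 and 2.15, 1.55, 2.07, 2.05 and 2.15 on KO1 to KO5. Every knockout array was under every wild-type array, by a small margin except on KO2. The difference of -0.32 ± 0.12 (1.25-fold) did not pass the test over all genes (adjusted p = 0.138), although the exact permutation p was 0.0079. The 2 members whose groups did not overlap, Acot2 and Acot7, both had the knockout below, an order found for 5.43% of all tested genes. The opposite order was found for 4.19% of genes and for 0 members.

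ACOT8 is a peroxisomal enzyme of broad specificity that also takes the CoA esters of bile acids and their precursors. Its probe at chr2:164533514-164533573 ranged from 3.18 to 3.50 in wild type and from 3.04 to 3.29 in the knockout, and the groups overlapped. The difference was -0.14 ± 0.08 (adjusted p = 0.322, exact permutation p = 0.063).

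ACOT12 is the cytosolic acetyl-CoA hydrolase of liver. Its probe at chr13:88859346-88859405 read 3.51, 3.50, 3.46, 3.46 and 3.44 on WT1 to WT5, the narrowest wild-type spread of the 8 genes (SD 0.03). It read 3.32, 2.93, 3.63, 3.24 and 3.05 on KO1 to KO5, with an SD of 0.27. KO3 was the highest of the 10 arrays and the other knockout arrays were below every wild-type array. The difference, -0.24 ± 0.12 (1.18-fold), did not pass the test (adjusted p = 0.257, exact permutation p = 0.087).

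ACOT9 is a mitochondrial enzyme that hydrolyses short- to long-chain acyl-CoA, and its gene was the 1 member with a higher mean in the knockout. The tested probe, at chrX:150097687-150097746, read -0.59, -0.55, -0.97, -0.90 and -1.00 on WT1 to WT5 and -0.83, -0.36, -0.30, -0.61 and -0.58 on KO1 to KO5. The groups overlapped, and the difference of 0.27 ± 0.13 (1.2-fold) did not pass the test (adjusted p = 0.243, exact permutation p = 0.079). Acot10, a near copy of Acot9 without introns, was 0.26 ± 0.11 higher (adjusted p = 0.184), and how far their transcripts share signal was not tested. A second Acot9 probe at chrX:150069230-150069289 was above background on 0 arrays and was not tested.

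Across the 8 genes every knockout array had a median below the wild-type mean, at -0.32 on KO1, -0.41 on KO2, -0.17 on KO3, -0.58 on KO4 and -0.82 on KO5. KO1 was below the wild-type mean for all 8 members. KO4 and KO5 were below it for 7, and KO2 and KO3 for 5. The slides do not divide evenly between the genotypes: slide 2 held WT5 together with KO1, KO2 and KO3, slide 1 the remaining wild-type arrays, and KO5 and KO4 lay on slides 3 and 4, of which slide 4 was scanned on another day. Within slide 2 the differences had the same signs, at -0.52 for Acot1, -0.87 for Acot2, -0.74 for Acot3, -0.13 for Acot4, -0.44 for Acot7, -0.19 for Acot8, 0.51 for Acot9 and -0.14 for Acot12, but they rest on 1 wild-type array. They were smaller in size than over all arrays for Acot1, Acot2, Acot3, Acot4 and Acot12, and larger for Acot7, Acot8 and Acot9. With slide as a fixed block Acot2 was at -0.87 and did not pass the test (adjusted p = 0.299).

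**Figure D3:**
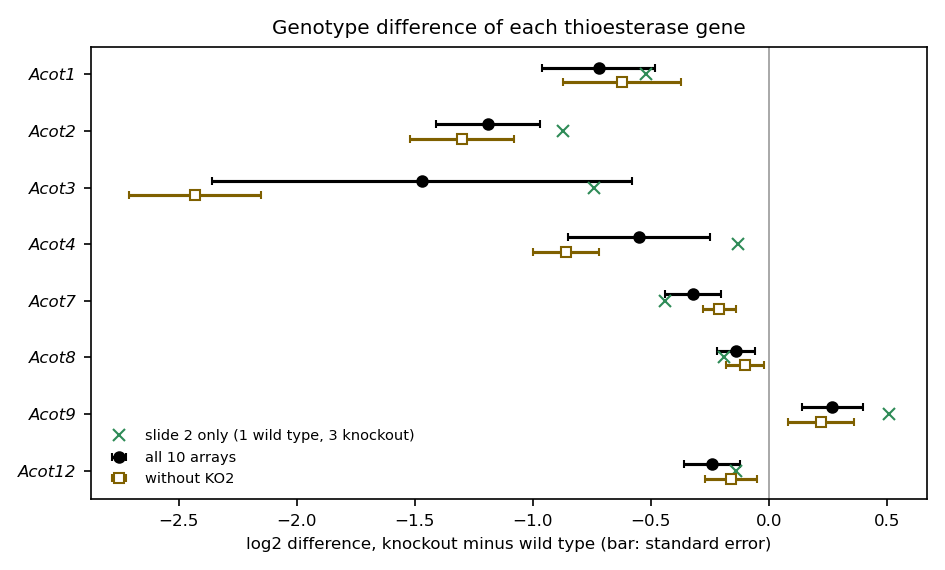
Log2 difference, knockout minus wild type (x axis), of each gene: filled circles for all 10 arrays and open squares without KO2, both with bars of 1 SE, and crosses for slide 2 (1 wild-type and 3 knockout arrays). The 3 estimates have the same sign for each gene, and Acot3 moves from -1.47 to -2.43 without KO2.

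The array also had probes for the rest of the chromosome 12 cluster. In the RefSeq annotation of GRCm38.p6, used here for gene order only, the genes run Acot2, Acot1, Acot4, Acot3, Acot5 and Acot6. The Acot5 probe was above background on 0 arrays. Acot6 was above it on 5 arrays, 3 wild-type and 2 knockout, so neither was tested. The 10 tested genes that flank the cluster, a set chosen after values were seen, had differences from -0.53 to 0.18. Of these 1 fell, Entpd5, an endoplasmic reticulum nucleotidase, at -0.53 ± 0.10 (1.44-fold, adjusted p = 0.015), and 0 rose in limma, with 0 higher at an unadjusted p under 0.05. For all tested genes the shares in limma were 3.48% lower and 2.44% higher.

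For Acot1, Acot2, Acot3 and Acot4, the 100 bases before each start site are shown as RefSeq gives them for GRCm38.p6, plus strand. Whether these genes differed from each other in their response was not tested. Capitals mark a match to AGGTCA on the minus strand.

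Acot1, chr12:84009402-84009501: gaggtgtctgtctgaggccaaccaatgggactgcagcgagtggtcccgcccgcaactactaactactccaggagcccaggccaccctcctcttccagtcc
Acot2, chr12:83987761-83987860: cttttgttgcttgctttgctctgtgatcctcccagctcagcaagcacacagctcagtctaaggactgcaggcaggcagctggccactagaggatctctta
Acot3, chr12:84052044-84052143: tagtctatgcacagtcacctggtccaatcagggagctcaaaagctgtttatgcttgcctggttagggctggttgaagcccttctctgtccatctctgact
Acot4, chr12:84038279-84038378: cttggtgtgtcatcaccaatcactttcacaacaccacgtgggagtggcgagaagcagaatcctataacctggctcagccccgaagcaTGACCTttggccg

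The hexamer AGGTCA was searched on both strands of the 250 bases upstream of each start. It was found at Acot4, starting at -13, and at Acot12, starting at -110, and in 14% of 32851 mouse promoters of that length. The pair of hexamers with a 1-base spacer, AGGTCANAGGTCA, was in 0 of the members' 9 promoters and in 0.0335% of all promoters, and with the fourth base of each hexamer free, AGGNCANAGGNCA, in 0 of 9 and in 0.338%. These are matches of letters in a short window and carry no information on binding.

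The genes whose pattern over the 10 arrays was nearest to that of Acot2, by the root mean square difference after each gene's mean was subtracted, were Gstt3 (0.13), Cul9 (0.19) and Cnnm1 (0.20), out of 11790 genes above background on all arrays. Acot2 itself varied with a root mean square of 0.69. Being chosen for their likeness to Acot2, they were bound to be lower in the knockout, and their differences are given with no test. These were -1.23 ± 0.19 for Gstt3, a glutathione transferase, -1.33 ± 0.17 for Cul9, a cullin, and -1.18 ± 0.21 for Cnnm1. For Acot9 the nearest were Plekho2 (0.08), Dchs1 (0.09) and Prkd2 (0.10), against 0.23 for Acot9 itself, and their differences, fixed in direction by the choice, were 0.27 to 0.31.

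The members act beside other thioesterases, and 2 of these changed in limma. With slide as a fixed block both of these calls were lost, like that of Acot2. Acot11, also called Them1, is a long-chain thioesterase known from brown fat. It read -0.79, -0.50, -0.10, -0.61 and -0.41 on WT1 to WT5 and -2.01, -2.82, -2.78, -2.55 and -2.16 on KO1 to KO5. The groups were far apart, and Acot11 fell by 1.98 ± 0.19, or 3.95-fold (limma adjusted p = 0.00071), while a second Acot11 probe was above background on 1 array of each group. Acot13, or Them2, is a mitochondria-associated long-chain thioesterase. It read 6.70, 6.73, 6.69, 6.65 and 6.78 on WT1 to WT5 and 6.21, 5.65, 6.21, 6.20 and 6.10 on KO1 to KO5, a fall of 0.64 ± 0.11 or 1.56-fold (adjusted p = 0.013). Of the 11 other thioesterases 7 were tested, 2 fell and 0 rose, with a median of -0.08 (0.03 without scaling between arrays) and 1 gene, Acot10, higher at an unadjusted p under 0.05; Acot5, Acot6, Them5 and Olah were too dim.

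The genes of 5 lists were also lower where they changed. The lists were the other thioesterases, acyl-CoA synthetases, acyl-CoA use in peroxisomes and in mitochondria, and PPARA with its targets. The last list also holds genes that neither make nor use acyl-CoA, such as Cidea. Over these 5 lists together, with 81 distinct genes, 76 were tested. In limma 22 fell (28.9%) and 0 rose, with 2 higher at an unadjusted p under 0.05. The median was -0.26. Of all tested genes 3.48% fell, 2.44% rose and 48.1% had a difference below zero. The lists share members, and they were drawn up with earlier results of these arrays known, so their direction is a description. Without scaling between arrays 6 of the 76 changed, and leaving out 1 array gave 8 (without WT2 or without WT5) to 23 (without KO2).

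Among the acyl-CoA synthetases 2 of 16 fell, with a median of -0.19. These were Slc27a4, a fatty acid transporter with synthetase activity (-0.48 ± 0.11, adjusted p = 0.035), and Acsm3, a medium-chain synthetase (-0.40 ± 0.08, adjusted p = 0.026). Each call was lost when single arrays were left out, 8 of the 10 arrays for Slc27a4 and 6 for Acsm3 (highest adjusted p = 0.096 and 0.073).

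In the peroxisomal list 6 of 17 genes fell and 15 lay below zero, with a median of -0.37. Pex11a, which drives peroxisome division, fell by 0.98 ± 0.10 (adjusted p = 0.0012). Crat, the carnitine acetyltransferase, fell by 1.04 ± 0.16 (adjusted p = 0.0076).

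In the mitochondrial list 6 of 20 genes fell and all 20 lay below zero, with a median of -0.20. Slc25a20, the carnitine-acylcarnitine carrier, fell by 0.46 ± 0.07 (adjusted p = 0.0065). Hadh, the short-chain hydroxyacyl-CoA dehydrogenase, fell by 0.52 ± 0.10 (adjusted p = 0.021) and Acadm, the medium-chain acyl-CoA dehydrogenase, by 0.41 ± 0.09 (adjusted p = 0.027). Leaving out single arrays ended the call of Hadh for 4 arrays (WT1, WT2, WT5 and KO5, highest adjusted p = 0.060) and of Acadm for 5 (WT2, WT4, WT5, KO4 and KO5, highest adjusted p = 0.077).

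In the list of PPARA and its known targets 12 of 30 genes fell and 28 lay below zero, with a median of -0.43. Cidea, a lipid droplet protein, had the largest change of the list at -8.78 ± 0.74 (adjusted p = 0.00055), followed in order of p by Pex11a and Slc25a20. Ppara itself, outside the rule for named genes, was lower by 0.60 ± 0.15 on the log2 scale (adjusted p = 0.048), a call kept only without KO1 or KO2 (otherwise up to 0.108). Within slide 2 the medians were -0.08 for the other thioesterases, -0.39 for the synthetases, -0.42 and -0.31 for the peroxisomal and mitochondrial lists, and -0.44 for PPARA and its targets.

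**Figure D4:**
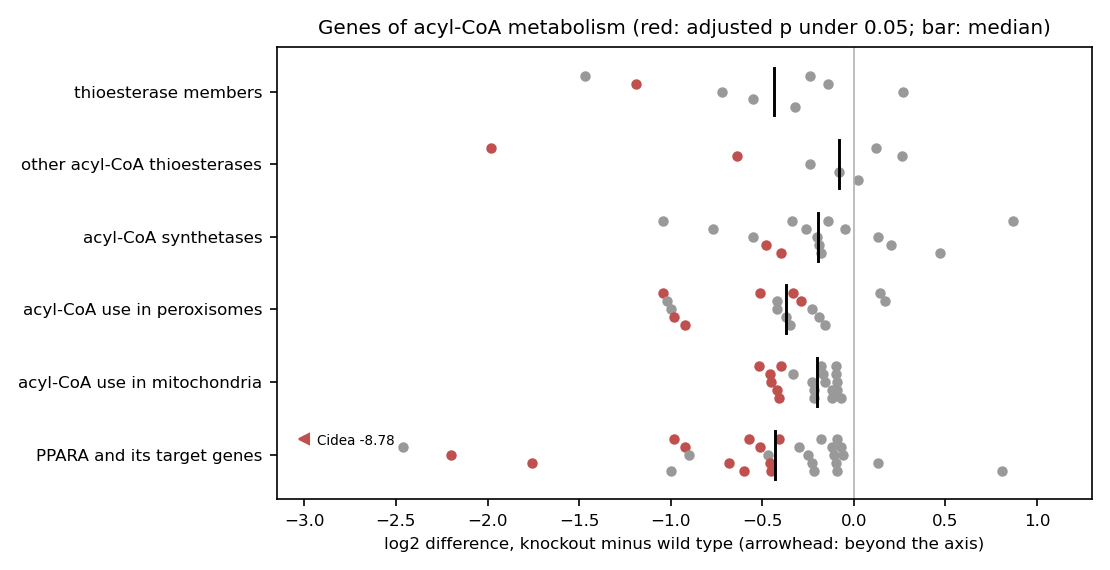
Log2 difference, knockout minus wild type (x axis), of each tested gene in the 8 thioesterase members and the 5 lists; red points have an adjusted p under 0.05, the black bar is the list median and the arrowhead is Cidea at -8.78. All red points lie below zero, and the members' median is -0.44.

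The arrays measured whole liver, where fewer cells of a type and less RNA per cell cannot be told apart. Over all tested genes, for comparison with the marker counts, 5.91% changed in limma and 23.7% had an unadjusted p under 0.05, in either direction. Of 12 hepatocyte markers 10 were tested and 0 changed in limma (1 higher and 1 lower at an unadjusted p under 0.05), with a summed signal, relative to the array's 75th percentile, of 1690 to 1961 in wild type and 1618 to 2034 in the knockout. Endothelial markers summed to 22.9 to 33 in wild type and 36.3 to 57.1 in the knockout, without overlap. Of these 12 markers 11 lay above zero, with a median of 0.40, and 9 were higher at an unadjusted p under 0.05, while 2 rose after adjustment, Flt4 (0.58 ± 0.12, adjusted p = 0.025) and Fcgr2b (0.74 ± 0.18, adjusted p = 0.043). The Flt4 call was lost without WT1, WT2, WT3, WT5 or KO4 (highest adjusted p = 0.070) and the Fcgr2b call without any array but KO1 (0.087). Macrophage markers overlapped in their sums, at 46 to 104 and 43.9 to 97.7. Of these 12 markers 8 lay above zero and 4 below. At an unadjusted p under 0.05 there were 3 higher, and 2 after adjustment, Cd163 (0.91 ± 0.22, adjusted p = 0.043) and Fcgr3 (0.81 ± 0.20, adjusted p = 0.042). The Cd163 call was kept only without WT1, KO1 or KO2 (otherwise up to 0.110) and the Fcgr3 call only without KO1 (otherwise up to 0.086). Of 12 stellate cell markers 8 lay above zero and 4 below, and 4 were higher at an unadjusted p under 0.05. Colec10 rose (0.51 ± 0.10, adjusted p = 0.021), a call lost without WT1, WT2 or WT5 (highest adjusted p = 0.065). The stellate sums overlapped at 81 to 101 and 93 to 112. With slide as a fixed block, 0 markers of these 3 cell types changed in limma. That fit compares the genotypes with 1 wild-type array on slide 2. Its medians were 0.82 for endothelial, 0.67 for macrophage and 0.15 for stellate cell markers, against 0.40, 0.35 and 0.14 in the main fit. Single markers moved either way. Within slide 2 the difference was 0.80 for Cd163 and 1.52 for Fcgr3, against 0.91 and 0.81 in the main fit.

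Of 9 adipocyte markers 3 were tested and 1 fell, Cfd (-5.72 ± 0.77, 52.8-fold, adjusted p = 0.0037). Fabp4 was at -0.25 ± 0.14 (adjusted p = 0.300) and Lipe at -0.40 ± 0.13 (adjusted p = 0.104), both with overlapping groups. The summed signal, 8.53 to 34 in wild type and 4.4 to 7.23 in the knockout, thus differed mainly through Cfd. Adipoq, Lep, Slc7a10 and Aqp7 were above background on 0 arrays. Retn was above it on 3 wild-type and 0 knockout arrays and Plin1 on 0 wild-type arrays and 1 knockout array, so neither was tested. Of the cholangiocyte markers 7 of 8 were tested (sums of 5.9 to 9.77 and 7.89 to 21.6) and of the lymphocyte markers 6 of 10 (0.831 to 1.16 and 0.787 to 1.71), and in both lists 0 changed in limma and 0 had an unadjusted p under 0.05. The part of these cell types in the thioesterase differences was not tested.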

How the data were processed

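The authors quantified 1-colour Agilent arrays with Agilent Feature Extraction (9.5 per the submitters' processing notes, 9.5.1.1 per the file headers). The deposited intensity values were corrected for background within each array, per the file headers, and not scaled between arrays. Here log2 was taken without a pseudocount, and the 75th percentile of each array was subtracted. Outlier spots were left out and replicate spots averaged. A probe was kept if Feature Extraction called it well above background on 4 or more of a group's 5 arrays (23266 probes), and the probe with the highest mean stood for its gene. The test was limma 3.58.1 (R 4.3.3; lmFit, then eBayes), two-sided, with Benjamini-Hochberg adjustment over all genes or probes. The code was tested on simulated data.

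Names came from accessions (22951 probes), symbols (6659), older symbols (3109) or the files (8455). Named were all members and, per list, up to 3 changed genes with the smallest p or otherwise the 1 with the smallest p. Also named were the 3 genes nearest to the member with the smallest p in each direction, and changed markers; 1 gene under the list rule is not reported here. Members, lists and rule were chosen with earlier results of these data known. Positions on mm7 and GRCm38.p6 were not mixed. The number of arrays limits the precision. Alternatives covered scaling, normalization, the filter, outlier spots, the probe for a gene, slide, variance model, replicate numbers and single arrays.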

Additional observations from a re-analysis of the deposited data

Results flagged for a closer look

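In 20 groups of 5 arrays, 4 had an array whose distance to its nearest neighbour was large for the range of the group by Dixon's criterion, which chance meets in about 1 group in 20. The groups come from 10 probes on the same arrays and are not independent, so the 4 cannot be weighed against that rate. In 3 of the 4 the array was KO2. For Acot3 KO2 was the highest knockout array at 1.53, with the others between -4.13 and -2.71. For the Acot4 probe at 82039249 it was the highest at 0.43, with the others between -1.23 and -0.84. For Acot7 it was the lowest at 1.55, with the others between 2.05 and 2.15. The remaining case was WT4, the lowest wild-type array for Acot3 at -1.34, with the others between -0.79 and -0.63.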

How the results depend on the processing

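Over 22 alternatives the 8 members gave 176 log2 differences, and 0 reversed. Of these 170 kept their side of the threshold, 3 lost the call (Acot2) and 3 gained one (Acot1 without KO3, Acot3 and Acot4 without KO2). Acot2 ranged from -1.30 to -0.87, with adjusted p from 0.010 to 0.958. The 1 changed member became 0 with slide as a fixed block and on slide 2 alone, and leaving out single arrays gave 0 to 3. The 1 changed probe became 0 in these settings and with no filter on dim probes, and single arrays gave 0 to 4. The 935 changed genes became 470 without scaling, 247 with no filter, 38 with slide as a fixed block, 1451 with slide as a random block and 2 on slide 2 alone, and single arrays gave 297 (without WT2) to 1191 (without KO1). The count fell by over 1.5 times without WT1, WT2, WT3, WT4, WT5, KO4 or KO5. The 22 changed list genes became 6 without scaling, 8 with no filter, 1 with slide as a fixed block and 0 on slide 2 alone, and single arrays gave 8 to 23, with the same 7 arrays lowering the count by over 1.5 times.

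The replicate numbers do not pair the arrays: same-numbered arrays correlated at -0.21 to 0.04 in their deviations from the group means. With a replicate block 166 genes, 1 member (Acot2, adjusted p = 0.048), 1 probe, 5 list genes and 0 endothelial, macrophage or stellate markers changed. With 1 wild-type array on slide 2, genotype and slide are largely confounded.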

Other observations

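The KO2 array also divided the 5 gene lists, a pattern and set of genes chosen after their values were seen. It was the lowest knockout array for 13 of 17 peroxisomal genes, 12 of 16 synthetases, 9 of 20 mitochondrial genes and 5 of 7 other thioesterases. In the list of PPARA and its targets it was the highest for 11 of the 30 genes and the lowest for 10. Over all tested genes KO2 was the lowest knockout array for 32.8% and the highest for 22.7%, against 13.3% to 21.8% and 15.3% to 24.4% for the other knockout arrays. Fgf21, a fasting hormone of the liver, read 5.16 on KO2, against -0.96 to 1.71 on the other knockout arrays and -0.44 to 1.52 on the wild-type arrays. Cyp4a14, a fatty acid omega-hydroxylase, read 6.48 on KO2 and 2.54 to 5.64 on the other knockout arrays, and Vnn1, a pantetheinase, 3.26 against 0.90 to 2.04. Ehhadh and Acaa1b, enzymes of peroxisomal beta-oxidation, were lowest on KO2, at 3.77 against 4.13 to 4.97 and at 5.77 against 7.08 to 7.23. Ppara read 3.22 on KO2, 3.66 to 4.13 on the other knockout arrays and 4.05 to 4.44 in wild type.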
